A study of Mus musculus with 12 samples.

Results

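Small nucleolar RNAs (snoRNAs), Cajal body RNAs (scaRNAs) and 5 other abundant small non-coding RNAs were followed in large intestinal crypts of mice with and without telomerase. Members were the 88 of 28793 genes in the expression table whose symbol begins with Snora, Snord or Scarna, or is Rmrp, Rpph1, Rn7sk, Rny1 or Rny3. They comprised 24 H/ACA box snoRNAs (Snora), 50 C/D box snoRNAs (Snord), 9 Cajal body RNAs (Scarna) and the 5 others. All mice were C57BL/6 and aged 3 months. The unsorted crypt epithelial cells came from mice heterozygous for mTert (the gene of the telomerase reverse transcriptase), from mTert-null mice of generation 4 (G4), in which telomeres have shortened over successive generations, and from generation 4 mice in which mTert was reactivated, labelled G4tam, with 2 libraries a group. The sorted cells, gated on GFP and described as crypt base columnar (stem or progenitor) cells, came from mice heterozygous for mTert and from a null line in its generation 3 (G3), with 3 libraries a group. No source used here gives the GFP reporter, the agent and allele of the reactivation, or the animals behind each library. The controls lack 1 mTert copy, so no group is wild type. The libraries are named as biological replicates without further detail, and p-values measure the spread between these libraries.

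A C/D box snoRNA guides 2′-O-methylation of ribosomal RNA, and an H/ACA box snoRNA guides the conversion of uridine to pseudouridine. Most are cut out of the introns of host genes, many of which code for ribosomal proteins or ribosome assembly factors, and are trimmed at both ends by exonucleases until the bound proteins stop them. Cajal body RNAs carry the same boxes and guide modification of the spliceosomal RNAs. Rmrp and Rpph1 are the catalytic RNAs of RNase MRP and RNase P, which process ribosomal and transfer RNA precursors. Rn7sk (7SK) holds the transcription elongation kinase P-TEFb inactive, and Rny1 and Rny3 are Y RNAs bound by the Ro60 protein. Almost none of these RNAs ends in a poly(A) tail, and the crypt renews its epithelium fast enough to need constant ribosome production.

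GENCODE release M21 (GRCm38, mm10) held all 88 members and supplied their positions and sequences. Their lengths ran from 64 to 414 bases with a median of 103, and 8 had 200 bases or more, a size below which the silica columns used here retain RNA poorly. A host gene on the same strand enclosed 78 members: 51 lay in an intron, 19 in an exon of some host isoform and 8 partly in one, whereas 10 had a gene of their own. Rpph1 partly overlaps Ccnb1ip1 on the same strand, Scarna10 an exon of Ncapd2, and Rmrp an exon of Ccdc107 on the opposite strand. No source used here states the strand setting of the counting, so reads of these pairs may be shared.

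The sequences below, on the GRCm38 strand named for each, are the 4 members that passed the test in null G4 crypts (Snord35a, Snord91a, Snord45b and Snord11), the scaRNA closest to passing in the same direction (Scarna9), and RNAs whose differences were among the largest in sorted cells (Snord17, Snora78, Rny1, Rny3 and Rmrp). Capitals mark the C box (TGATG within the first 20 bases) and the D box (CTGA within the last 20 bases) of C/D members and of Scarna9, the ACA 3 bases from the 3′ end of Snora78, and the terminal TTTT of the Y RNAs. Rmrp has no box marked.
Snord35a (chr7:45126346-45126435, minus strand, intron of Rpl13a): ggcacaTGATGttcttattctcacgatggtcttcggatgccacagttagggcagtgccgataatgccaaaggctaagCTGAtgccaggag
Snord91a (chr11:74905424-74905516, plus strand, intron of Tsr1): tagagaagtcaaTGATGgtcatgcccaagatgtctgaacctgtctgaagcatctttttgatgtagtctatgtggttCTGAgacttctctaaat
Snord45b (chr3:153910563-153910633, minus strand, exon of a Rabggtb isoform): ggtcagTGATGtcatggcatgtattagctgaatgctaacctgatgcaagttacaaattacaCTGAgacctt
Snord11 (chr1:59704790-59704873, plus strand, intron of Nop58): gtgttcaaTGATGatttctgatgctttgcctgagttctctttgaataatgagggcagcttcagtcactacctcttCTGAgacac
Scarna9 (chr9:15326264-15326333, minus strand, intron of Cep295): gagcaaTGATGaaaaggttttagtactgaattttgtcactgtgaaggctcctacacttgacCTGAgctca
Snord17 (chr2:144265979-144266216, minus strand, intron of Snx5): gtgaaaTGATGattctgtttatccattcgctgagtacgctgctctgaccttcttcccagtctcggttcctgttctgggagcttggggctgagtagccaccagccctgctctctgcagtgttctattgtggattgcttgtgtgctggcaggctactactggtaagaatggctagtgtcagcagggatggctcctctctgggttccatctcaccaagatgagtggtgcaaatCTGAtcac
Snora78 (chr17:24719676-24719803, minus strand, intron of Snhg9): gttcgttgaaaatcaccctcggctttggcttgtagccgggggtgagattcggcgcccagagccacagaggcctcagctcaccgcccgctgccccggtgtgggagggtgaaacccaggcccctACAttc
Rny1 (chr6:47788069-47788180, minus strand, own gene): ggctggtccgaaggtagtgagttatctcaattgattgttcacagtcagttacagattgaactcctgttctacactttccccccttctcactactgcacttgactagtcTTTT
Rny3 (chr6:47781624-47781725, plus strand, own gene): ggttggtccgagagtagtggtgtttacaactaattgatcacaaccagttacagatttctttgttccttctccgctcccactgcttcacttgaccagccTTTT
Rmrp (chr4:43492788-43493058, minus strand, own gene): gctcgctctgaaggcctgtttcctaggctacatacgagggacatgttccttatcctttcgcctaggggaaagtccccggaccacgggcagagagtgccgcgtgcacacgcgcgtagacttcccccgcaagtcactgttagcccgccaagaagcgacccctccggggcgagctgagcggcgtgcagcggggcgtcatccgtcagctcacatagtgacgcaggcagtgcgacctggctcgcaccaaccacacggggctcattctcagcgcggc

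The boxes followed the names. Searched on the strand of the RNA, the C and D boxes in these windows occurred together in 42 of 50 Snord members (84.0%), in 4 of 9 Scarna members and in 0 of 24 Snora members, against 0.424% of 141515 GENCODE transcripts of 60 bases or more. An ACA 3 bases from the end was present in 21 of 24 Snora members (87.5%) and 0 of 50 Snord members, against 2.45% of those transcripts. Rny1 and Rny3 ended in TTTT, as did 1.34% of transcripts. A match describes these letters in these windows only.

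Depth was estimated from the steps between low RPKM values (reads scaled to gene length and library size), which were whole multiples of 1 read for 90.5% to 91.9% of low values in the unsorted libraries within a tolerance of 0.05 reads, where chance gives 10%. By that estimate the unsorted libraries held 74700000 to 102700000 reads. The estimate was less certain in sorted libraries, where 45.7% to 61.5% of low values were whole in 5 of 6. The null G3 library 1 stood apart from the other sorted libraries: 71.9% of its RPKM lay in the mitochondrial ribosomal RNAs mt-Rnr1 and mt-Rnr2 (38.7% to 64.4% in the others), 5424 genes reached RPKM 1 (7721 to 9144 in the others), and the stem cell marker Lgr5 was at 0.12 RPKM (3.40 to 4.74 in the others). Enterocyte markers of the small intestine (Sis, Apob, Apoa4, Fabp2 and Lct) summed to 3166 RPKM in that library and to 76.9 to 119 in the other sorted ones, and to 231 in unsorted heterozygous library 2 against 68.8 to 85.7 in the other unsorted ones. Their part in the results was not tested. Null G3 library 1 enters the comparison of heterozygous sorted and unsorted cells only through the shared spread, so leaving it out cannot show its part there. Lgr5 lay at 0.45 to 0.93 RPKM in unsorted libraries, and Epcam, an epithelial marker, at 134 to 414 RPKM in all 12. Y-linked RNA (4 genes summed) was present at 18.2 to 18.9 RPKM in both unsorted heterozygous libraries and in reactivated library 2, and at 0.00647 to 0.0148 RPKM in both null G4 libraries and in reactivated library 1, so the sex of the mice and the null genotype cannot be told apart among the unsorted heterozygous and null libraries.

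In unsorted crypts, 3 members made up nearly all of the RNA of the family. Rn7sk, Rpph1 and Rmrp together gave 91.6% to 95.4% of the members' summed RPKM in each of the 6 libraries. Rn7sk, the 7SK RNA, was the most abundant, at 13347 and 11189 RPKM in heterozygous, 8639 and 8242 in null G4 libraries and 7453 and 13213 in reactivated ones. Rpph1, the RNase P RNA, stood at 11064 and 7624 RPKM in heterozygous, 3869 and 1976 in null G4 libraries and 4077 and 10383 in reactivated ones. Both heterozygous libraries and reactivated library 2 were the highest 3 for each of these RNAs, and the null and heterozygous groups did not overlap. Rmrp, the RNase MRP RNA, followed with 3588 and 1852 RPKM in heterozygous, 1320 and 816 in null G4 libraries and 1233 and 2845 in reactivated ones. Summed over the 88 members, the share of all RPKM was 12.4% and 8.14% in heterozygous, 6.61% and 4.97% in null G4 libraries and 5.93% and 11.8% in reactivated ones. The shares in the reactivated group thus spanned from below null library 1 to near heterozygous library 1. The 3 libraries highest for Rn7sk and Rpph1 were also those with Y-linked RNA, so sex and the null genotype cannot be told apart here. A lower share in a bulk library can also stand for fewer cells of a type or for less RNA per cell, which cannot be told apart either.

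**Figure D1:**
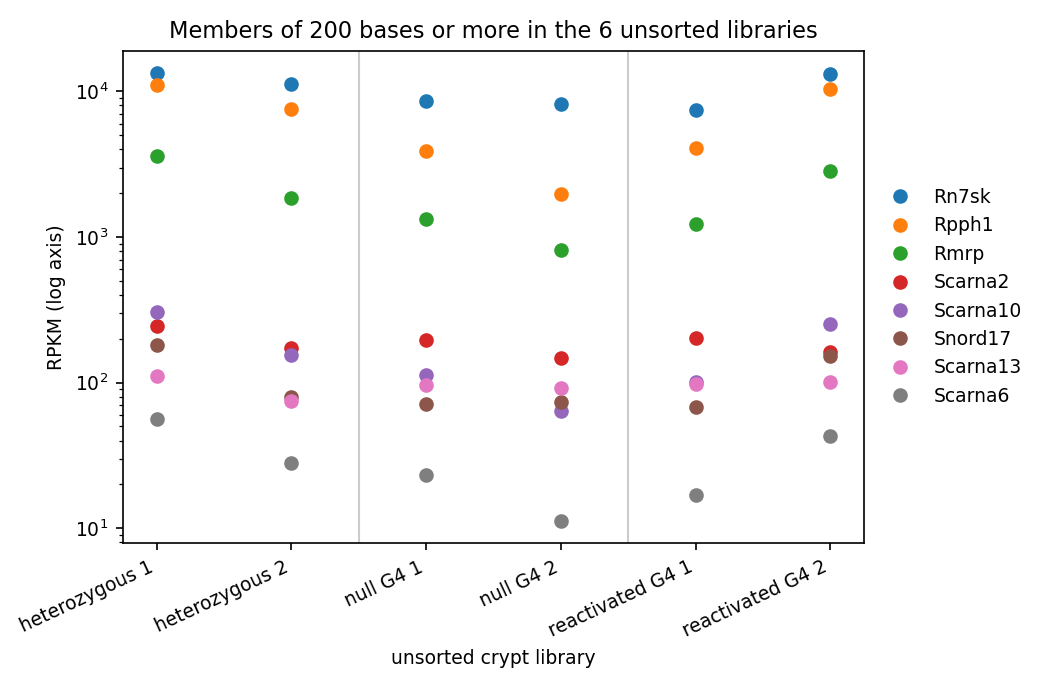
RPKM (log axis) of the 8 members of 200 bases or more in each of the 6 unsorted libraries, 1 point a library, with vertical lines between groups. Rn7sk, Rpph1, Rmrp, Scarna10 and Scarna6 were lower in both null G4 libraries than in both heterozygous ones, and reactivated library 2 was above both null G4 libraries for these 5.

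The other long members were scaRNAs and Snord17. Scarna2, a scaRNA with its own gene, averaged 188 RPKM over the 6 libraries with little spread (148 to 246). Scarna10, which lies within Ncapd2, read 306 and 153 RPKM in heterozygous, 113 and 63.8 in null G4 libraries and 102 and 251 in reactivated ones. Scarna13 varied least of the long scaRNAs, from 75.3 to 111 RPKM. Scarna6, in an intron of the autophagy gene Atg16l1, gave 55.8 and 28.0 RPKM in heterozygous, 23.1 and 11.3 in null G4 libraries and 16.9 and 43.0 in reactivated ones. Its order over libraries was close to that of Scarna10, and both fell into the pattern of Rmrp. Per class, the median of the members' mean RPKM over the unsorted libraries was 3.65 for H/ACA, 2.79 for C/D and 29.7 for Cajal body members. Only 24 of the 88 averaged 10 RPKM or more, among them all 8 of 200 bases or more and 16 of the 80 shorter ones.

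Read numbers set the precision of the shorter members. By the estimated depth, 8 members had a median over 1000 reads in the unsorted libraries and 35 had a median under 20, and 95.5% of 202 low member values of up to 20 reads were whole within 0.1 reads. Snord15a, in an intron of the ribosomal protein gene Rps3, was deep enough to show its spread clearly: 151 and 43.2 RPKM in heterozygous, 99.1 and 66.0 in null G4 libraries and 85.3 and 123 in reactivated ones. The 2 heterozygous libraries were its highest and its lowest. Snora78, an H/ACA snoRNA in the non-coding host Snhg9, behaved likewise, with 134 and 41.3 RPKM in heterozygous, 67.1 and 57.7 in null G4 libraries and 77.5 and 106 in reactivated ones. For both RNAs the heterozygous libraries enclosed the null ones.

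Heterozygous library 1 and reactivated library 2 were the 2 highest unsorted libraries for 23 of the 88 members, against 2.08% (238) of the 11464 genes tested in the unsorted fit. Among members averaging 10 RPKM or more the count was 17 of 24, and among those of 200 bases or more 7 of 8. By class it was 10 of 24 H/ACA, 5 of 50 C/D, 4 of 9 Cajal body and 4 of 5 other members. This pair of libraries was picked after the values were seen, so the counts describe these libraries and carry no test. Terc, the H/ACA box RNA of telomerase, which the rule does not include, read 8.57 and 4.65 RPKM in heterozygous, 4.59 and 3.40 in null G4 libraries and 5.47 and 5.85 in reactivated ones. Rnu3a (U3 snoRNA), also outside the rule, read 341 and 101, then 113 and 88.6, then 146 and 240 RPKM in the same order.

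Likeness was measured as Pearson's r of log2(RPKM + 1) over the 6 unsorted libraries, as a description of points that share libraries and groups. The members most like Rmrp were Scarna10 (r = 0.999), Scarna6 (0.990), Snora23 (0.976), Rpph1 (0.973) and Scarna3a (0.952). Those most like Rn7sk were Snora74a (r = 0.964), Rmrp (0.918), Scarna10 (0.911), Scarna6 (0.909) and Snord17 (0.894).

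The first comparison asked how the RNAs differ when telomerase has been absent for 4 generations. Of the 88 members, 78 reached RPKM 1 in at least 2 unsorted libraries and were tested. With limma (adjusted p under 0.05 over all 11464 genes), 4 C/D box snoRNAs were higher in null G4 than in heterozygous crypts and 0 members were lower. That is 5.13% of tested members, where 5.55% of all genes passed (4.97% higher, 0.576% lower), a share near the background. Snord11, 1 of the 4, reached RPKM 1 in the 2 null libraries alone, so it entered the test through the group where it was high and had to differ.

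Snord35a, in an intron of the ribosomal protein gene Rpl13a, showed the largest of these differences. It was at 2.29 and 1.77 RPKM in the heterozygous libraries and 6.41 and 5.78 in null G4 libraries, with 4.48 and 3.14 in reactivated ones. These values rest on about 18.1 and 14.1 reads in the heterozygous libraries and 43.1 and 52.2 in null G4 libraries. The log2 difference (null minus heterozygous, of log2(RPKM + 1), a scale that understates changes of low genes) was 1.23 (SE 0.18, limma adjusted p = 0.0107, n = 2 a group). Its host Rpl13a differed by 0.46 (SE 0.25, limma adjusted p = 0.172).

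Snord91a, in an intron of the ribosome assembly gene Tsr1, read 1.60 and 2.33 RPKM in the heterozygous libraries and 4.18 and 3.76 in null G4 libraries, a difference of 0.76 (SE 0.17, limma adjusted p = 0.0444). Snord45b, hosted by Rabggtb, read 3.40 and 4.51 against 7.20 and 6.78 RPKM, a difference of 0.70 (SE 0.16, limma adjusted p = 0.0488). Snord11, in an intron of Nop58, which codes for a core C/D snoRNP protein, read 0.68 and 0.68 against 1.60 and 1.67 RPKM, a difference of 0.65 (SE 0.15, limma adjusted p = 0.0498), on 5 to 14.1 reads a library, and adds no support since the filter admitted it through those null libraries. In all 4 members both null libraries were above both heterozygous ones, as was true of 74.7% of all genes tested. The hosts of the last 3 differed by 0.65 (Tsr1), 0.70 (Rabggtb) and 0.81 (Nop58), none of which passed.

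**Figure D2:**
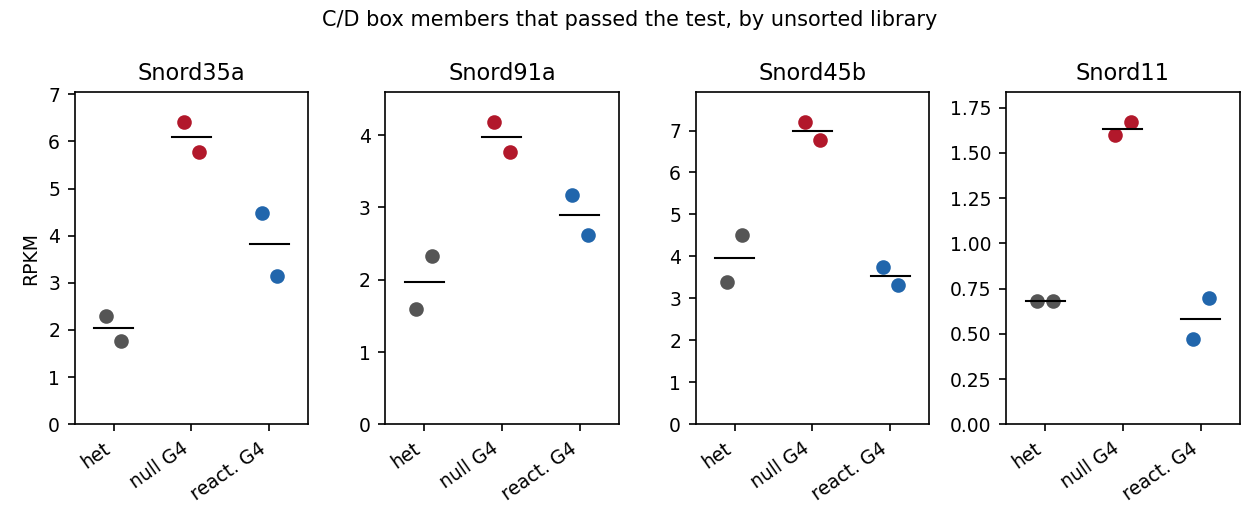
RPKM of Snord35a, Snord91a, Snord45b and Snord11 in the unsorted heterozygous (het), null G4 and reactivated G4 (react. G4) libraries, 2 points a group with the group mean as a line. The null G4 points lie above all others in each panel.

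Calls near the threshold depended on the scaling. Reactivated libraries 1 and 2 enter this comparison only through the shared spread. The all-gene median difference was 0.36 without either of them, and no count of calls is given for those fits. Leaving out a heterozygous or null library leaves 1 in its group, so no calls are read from those fits. Whether any of the 4 calls holds without 1 of these libraries is therefore not shown. With a null library left out Snord11 was not tested. Snord91a, Snord45b and Snord11 were lost under quantile normalization (limma adjusted p = 0.128, 0.182 and 0.143), and all 4 with a term for sex (limma adjusted p = 0.223 for Snord35a). Among the unsorted groups only the reactivated one held libraries with and without Y-linked RNA. The sex term thus rests on the gap between its 2 libraries and cannot separate sex from the null genotype.

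The 5 other RNAs had lower estimates that did not pass. With limma, the difference was -1.73 for Rpph1 (SE 0.49, adjusted p = 0.0584), -1.31 for Rmrp (SE 0.48, adjusted p = 0.0802), -0.53 for Rn7sk (SE 0.33, adjusted p = 0.225), -0.62 for Rny1 (SE 0.45, adjusted p = 0.289) and -0.14 for Rny3 (SE 0.26, adjusted p = 0.686). Rpph1, Rmrp, Scarna10 (-1.34) and Scarna6 (-1.24) passed as lower when the filter was raised to RPKM 5, which left 40 members in the test. Of all 6022 genes tested there, 71 passed as lower and 2117 as higher. At that filter Snord35a and Snord45b, 2 of the 3 members called higher, entered through the null libraries alone. A fit without reactivated library 1 uses the same heterozygous and null values for these RNAs and changes only the shared spread. With the sex term, which rests on the gap between the 2 reactivated libraries alone, the estimates were -0.38 for Rpph1 and -0.11 for Rmrp. Rny1 read 80.0 and 31.0 RPKM in the heterozygous libraries and 36.6 and 28.0 in null G4 libraries, so its groups overlapped. Snord13, a C/D member with its own gene, averaged 48.1 RPKM in heterozygous, 52.7 in null G4 and 57.2 in reactivated libraries. Its estimate was higher in null G4 crypts (0.22, SE 0.38, limma adjusted p = 0.656).

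The Cajal body RNAs split. The limma estimate was lower for 6 of the 8 tested and higher for 2, and 0 passed (4 at an unadjusted p under 0.05). Scarna9, a short scaRNA in an intron of Cep295, read 32.9 and 33.7 RPKM in heterozygous, 69.0 and 52.8 in null G4 libraries and 39.2 and 26.6 in reactivated ones, a difference of 0.84 (SE 0.26, limma adjusted p = 0.0605). Both null libraries lay above all others. Scarna3a, in an intron of Cop1, read 7.75 and 3.73 in the heterozygous libraries and 2.86 and 2.35 in null G4 libraries, a difference of -0.84 (limma adjusted p = 0.0701). Scarna2 and Scarna13 differed by -0.28 and 0.04, less than their SE of 0.29 and 0.26. Scarna17 and Scarna3b differed by -0.29 and -0.52 (limma adjusted p = 0.252 and 0.286).

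By class, the median difference was -0.15 for the 21 H/ACA members tested, 0.13 for the 44 C/D members and -0.40 for the 8 Cajal body members, beside 0.36 for all genes. The estimate was higher in null crypts for 9 H/ACA, 30 C/D and 2 Cajal body members, against 86.1% of all genes. Relative to the median of all genes, 56 of the 78 members lay below it: 18 H/ACA, 26 C/D, 7 Cajal body and all 5 other members. Medians for H/ACA and Cajal body members were negative under quantile normalization, median scaling and rescaling without mitochondrial genes too, whereas that of C/D members was -0.19, -0.23 and 0.02. Groups did not overlap for 32 members (41.0%) where 81.2% of all genes had groups that did not overlap. With limma, 0 of 21 H/ACA and 9 of 44 C/D members had an unadjusted p under 0.05, below the 44.2% of all genes.

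**Figure D3:**
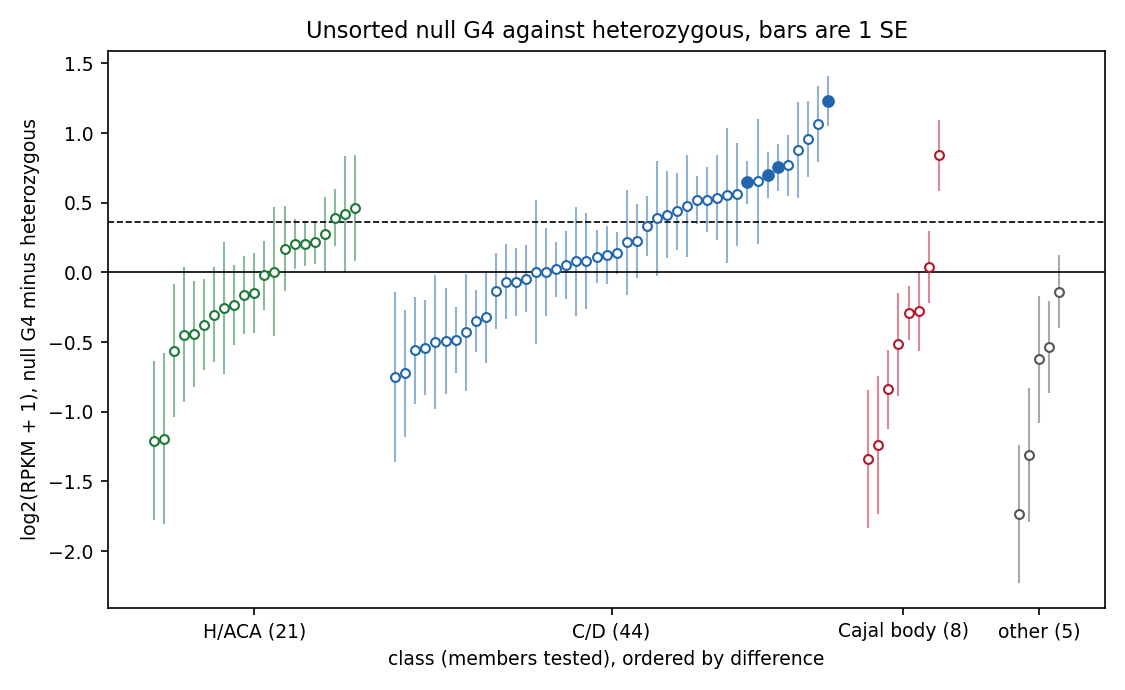
Differences in log2(RPKM + 1) between unsorted null G4 and heterozygous libraries for the 78 tested members, ordered within class, with bars of 1 SE. Filled points passed at adjusted p under 0.05 (limma), and the dashed line is the median of all genes tested (0.36): the 4 filled points are C/D members, and the other class lies below 0 throughout.

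Most members had a lower estimate than their host. For 64 tested members with a tested host (55 host genes), the median difference was 0.07 for the members and 0.48 for the hosts, and 49 members lay below their host. Member and host estimates had the same sign for 37 of the 64, and how closely members follow hosts was not tested. The scale understates differences of members at low RPKM. Its part in these counts and in the count below the all-gene median was not tested. With limma 0 of the hosts passed. Members that share a host share its transcription: Snord19 and Snord69 in Gnl3, which codes for nucleostemin, differed by 0.77 and 0.96, while Snora75 and Snord82 in Ncl, the nucleolin gene, differed by 0.22 and 1.06. None of these 4 passed. Snord82 rests on 0 to 11.1 reads a library.

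Estimates for the proteins that hold these RNAs were read against all genes, of which 86.1% had a higher estimate in null G4 crypts and 44.2% an unadjusted p under 0.05. Of the 6 H/ACA snoRNP genes tested, 6 had a higher estimate and 0 passed with limma (4 at an unadjusted p under 0.05, median 0.64). Dkc1, the pseudouridine synthase of the H/ACA particle, differed by 0.73 (SE 0.22, limma adjusted p = 0.0612). All 9 C/D snoRNP genes had a higher estimate (median 0.73) and 0 passed (7 at an unadjusted p under 0.05), among them the methyltransferase gene Fbl at 0.73. Of 9 RNase P and MRP protein genes 1 passed as higher, Rpp30 (1.07, SE 0.22, limma adjusted p = 0.0347). The median was 0.50 over those 9, 0.15 over 6 proteins of the 7SK particle, 0.64 over 5 Y RNA binding proteins, 0.43 over 5 Cajal body proteins and 0.52 over 17 exosome and trimming factors, of which 0 passed with limma (2, 4, 3 and 11 at an unadjusted p under 0.05). These medians lie on both sides of the 0.36 of all genes, so each list is described by its values only. Of 60 other RNAs without a poly(A) tail, mostly replication-dependent histone messages, 53 had a higher estimate (median 0.68) and 0 passed (26 at an unadjusted p under 0.05).

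Some other features differed between heterozygous and null G4 libraries, and the reactivated group split. For mitochondrial ribosomal RNA and proliferation markers, reactivated library 2 lay on the heterozygous side of reactivated library 1, as it did for Y-linked RNA. The mitochondrial ribosomal RNAs took 19.2% and 27.3% of RPKM in heterozygous, 12.01% and 11.9% in null G4 libraries and 10.8% and 16.7% in reactivated ones. Proliferation markers summed to 46.0 and 47.7 RPKM in heterozygous, 104 and 112 in null G4 libraries and 86.9 and 50.8 in reactivated ones, and 3 of 4 (Ccnb1, Top2a and Mki67) were higher in null G4 crypts with limma. Of 8 goblet cell genes, Clca3 and Fcgbp were lower in null G4 crypts with limma. The estimate was lower for 6 of the 8 and higher for 2 (median -0.12). Immune markers (7 genes) summed to 1.52 to 5.25 RPKM and stromal and vessel markers (7 genes) to 0.55 to 1.51 RPKM in the 6 libraries. Their part in the result was not tested.

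The second comparison asked what changed when telomerase was switched back on. With limma, 0 of the 78 members passed between reactivated and null G4 crypts (7 at an unadjusted p under 0.05), where 0.0262% of all genes passed. The median difference (reactivated minus null) was 0.08 for members and -0.14 for all genes. It was 0.12 for H/ACA, -0.04 for C/D and 0.19 for Cajal body members, and the C/D value was positive under quantile normalization (0.05) and median scaling (0.11). The 5 smallest p-values belonged to Snord45b (-0.82, SE 0.16), Snord11 (-0.74, SE 0.15), Scarna9 (-0.88, SE 0.26), Snord35a (-0.57, SE 0.18) and Snord100 (-0.62, SE 0.23), with limma adjusted p of 0.773 for the first and 0.833 for the other 4. Snord45b read 3.75 and 3.31 RPKM and Snord11 read 0.47 and 0.70 RPKM in reactivated libraries, below both null libraries. Snord100, in the ribosomal protein gene Rps12, read 11.1 and 9.89 RPKM in null and 8.26 and 5.02 in reactivated libraries. This comparison shares the null libraries with the first, so its direction in members high in those libraries is no separate result.

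The 2 reactivated libraries lay far apart for several abundant members and close together for others. Rpph1 was at 4077 RPKM in the first and 10383 in the second, Rmrp at 1233 and 2845, Scarna10 at 102 and 251, and Snora74a, an H/ACA snoRNA, at 13.9 and 57.1. Scarna13 was at 97.7 and 101 RPKM. The limma difference for Rpph1 was 1.23 (SE 0.49, adjusted p = 0.833), although both reactivated libraries lay above both null ones. Groups did not overlap for 22 members (28.2%), against 30.0% of all genes. Without reactivated library 1 the all-gene median difference was -0.27, against -0.14 with all libraries.

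The third comparison asked what still differed from heterozygous crypts after reactivation. With limma, 0 of 78 members passed (5 at an unadjusted p under 0.05), where 1.27% of all genes passed. The smallest p-values were those of Snord123 (-0.87, SE 0.23, limma adjusted p = 0.173), Snord35a (0.66, SE 0.18, adjusted p = 0.181), Snord82 (0.72, SE 0.27, adjusted p = 0.317), Snord35b (0.44, SE 0.17, adjusted p = 0.319) and Snord91a (0.40, SE 0.17, adjusted p = 0.342). Snord123, in the non-coding host Snhg18, read 8.26 and 4.67 RPKM in heterozygous, 4.74 and 3.68 in null G4 libraries and 3.20 and 2.76 in reactivated ones. Its heterozygous libraries were the highest and the third highest of the 6. The all-gene median difference was 0.36 without reactivated library 2, 0.19 without heterozygous library 1 and 0.27 without heterozygous library 2. Each of these fits leaves 1 library in a group, so no calls are read from it. Groups did not overlap for 11 members, against 51.1% of all genes. With all libraries the all-gene median difference was 0.22, and 58 of the 78 members lay below it.

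The sorted libraries listed very little of these RNAs. Whether RNA with a poly(A) tail was selected, in either set, is stated in no source used here, and since most members lack a tail their low sorted values cannot be read as cell content. The 85 members listed for the sorted set summed to 0.00457% to 0.0258% of RPKM, against 4.97% to 12.4% for the 88 in unsorted libraries. Rn7sk was at 17.4, 6.37 and 10.3 RPKM in sorted heterozygous and 3.14, 14.7 and 10.3 in null G3 libraries. Rpph1 was at 5.30, 3.41 and 9.45 RPKM in the heterozygous libraries and 0.88, 10.2 and 2.18 in null G3 libraries, and Rmrp at 0.22, 0.23 and 0.19 in the heterozygous libraries and 0, 0.46 and 0.14 in null G3 libraries. The highest sorted value of each lay far below its lowest unsorted value. Snora5c, Snord45c and Snord55 were not listed for sorted cells. In 48 members no sorted library reached 1 RPKM, and 13 averaged more than 1 RPKM over the sorted libraries.

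The fourth comparison, null G3 against heterozygous sorted cells, therefore covered few members: 13 of 85 reached RPKM 1 in at least 3 sorted libraries. With limma 0 passed and 0 had an unadjusted p under 0.05 (0.0% of all 8734 genes passed, 143 at an unadjusted p under 0.05). The smallest p-values were those of Scarna9 (-0.73, SE 0.46), Snord72 (-0.74, SE 0.47), Snord100 (-0.76, SE 0.49), Snord118 (0.39, SE 0.32) and Snord104 (-0.67, SE 0.55), each with a limma adjusted p of 0.481. Scarna9 was the scaRNA best detected in sorted cells, at 2.2999, 7.60 and 4.95 RPKM in the heterozygous libraries and 1.01, 3.20 and 3.38 in null G3 libraries, which overlapped. Snord118 (U8), which acts in processing of the large subunit ribosomal RNA, read 1.21, 0.56 and 0.20 RPKM in the heterozygous libraries and 0.51, 1.22 and 1.78 in null G3 libraries. The median difference of the 13 was -0.38 (all genes -0.46), -0.15 without null G3 library 1, and 0.01 under quantile normalization. With 3 libraries in each group, the smallest two-sided p of an exact permutation test is 0.1.

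The last comparison set heterozygous sorted against heterozygous unsorted cells, in a fit of all 12 libraries. The 2 sets list different genes and appear to have been normalized separately, so each value carries that limit. Of 85 members, 77 were tested. With limma, 57 (74.0%) were lower in sorted cells and 0 higher, where 31.3% of 11862 genes were lower and 4.32% higher. All 5 of the other RNAs passed as lower, as did 7 of 8 Cajal body, 16 of 21 H/ACA and 29 of 43 C/D members, and all 8 of 200 bases or more. The median difference was -1.88 for members and -0.39 for all genes. Of the 77, 40 reached RPKM 1 in no sorted library and entered through the unsorted ones where they were high, so the 36 calls among them (90.0%, against 76.6% of the 1902 genes that entered in that way) say little. Of the other 37 members, 21 (56.8%) were lower and 0 higher, where 22.6% of 9960 such genes were lower.

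With sorted values near 0, the size of a difference on the log2(RPKM + 1) scale follows the unsorted level, so the order of members by size is set by that scale. The difference (sorted minus unsorted) was -11.05 for Rmrp (SE 0.44, limma adjusted p = 1.4e-07), -10.44 for Rpph1 (SE 0.72, adjusted p = 5.3e-06) and -10.05 for Rn7sk (SE 0.58, adjusted p = 1.5e-06). Among Cajal body RNAs it was -7.72 for Scarna10, -7.10 for Scarna2, -6.52 for Scarna13 and -5.31 for Scarna6. Scarna2 read 246 and 174 RPKM in unsorted and 0.42, 0.32 and 0.87 in sorted heterozygous libraries. For Snord17 the difference was -6.70, for Snord15a -6.27 and for Snora78 -6.05, and the Y RNAs differed by -5.54 (Rny1) and -5.04 (Rny3). Rny3 read 37.2 and 28.5 RPKM in unsorted and 0.06, 0 and 0 in sorted heterozygous libraries. By class the median difference was -10.05 for the 5 others, -4.08 for Cajal body, -1.89 for H/ACA and -1.34 for C/D members. Groups did not overlap for 60 members (77.9%), each with sorted below unsorted, where 54.9% of all genes had sorted below unsorted without overlap.

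**Figure D4:**
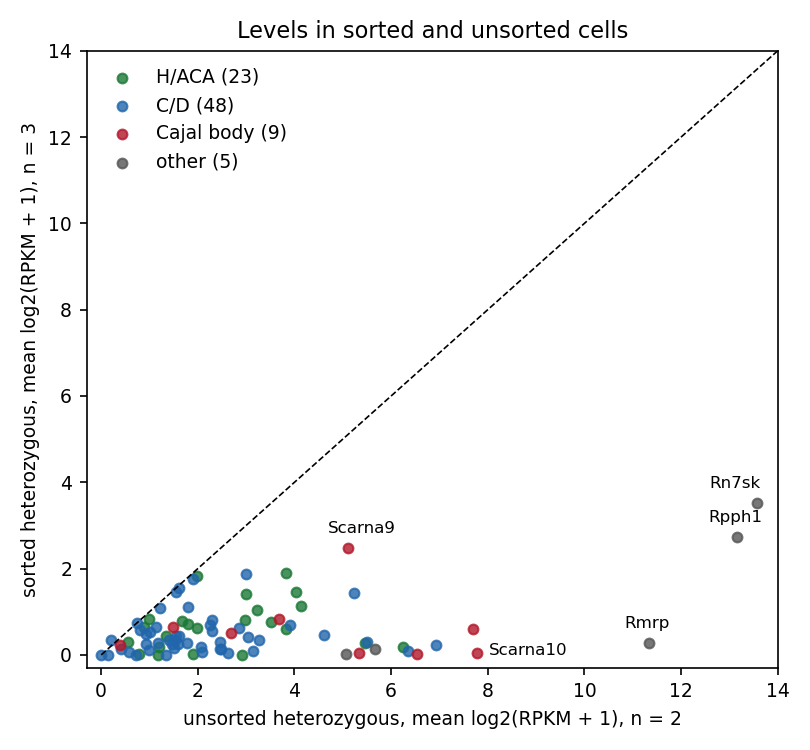
Mean log2(RPKM + 1) of each of the 85 members in sorted heterozygous libraries (vertical, n = 3) against unsorted ones (horizontal, n = 2), coloured by class, with equality as the dashed line. Rn7sk, Rpph1 and Rmrp lie farthest to the right, at 10.05 to 11.05 below the line.

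Few hosts were lower with them. For 63 tested members with a tested host (54 hosts), the median difference was -1.35 for the members and -0.05 for the hosts, and 56 members lay below their host. With limma 3 hosts were higher and 4 lower in sorted cells, whereas 43 of these members were lower. Rps3, which hosts Snord15a, differed by -0.06 (SE 0.70, limma adjusted p = 0.954), and Snx5, which hosts Snord17, by -0.05 (SE 0.36, adjusted p = 0.939). Snhg9, which hosts Snora78, was lower by itself (-1.89, SE 0.19, limma adjusted p = 5.0e-05). For some members the estimate lay near 0: Snord11 differed by -0.01 (SE 0.21), Snord72 by -0.05 (SE 0.51), Snord71 by -0.10 (SE 0.39) and Snord82 by 0.15 (SE 0.42), and none of the 4 passed. These 4 averaged 0.85 to 3.01 RPKM in unsorted cells and were chosen after their values were seen.

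**Figure D5:**
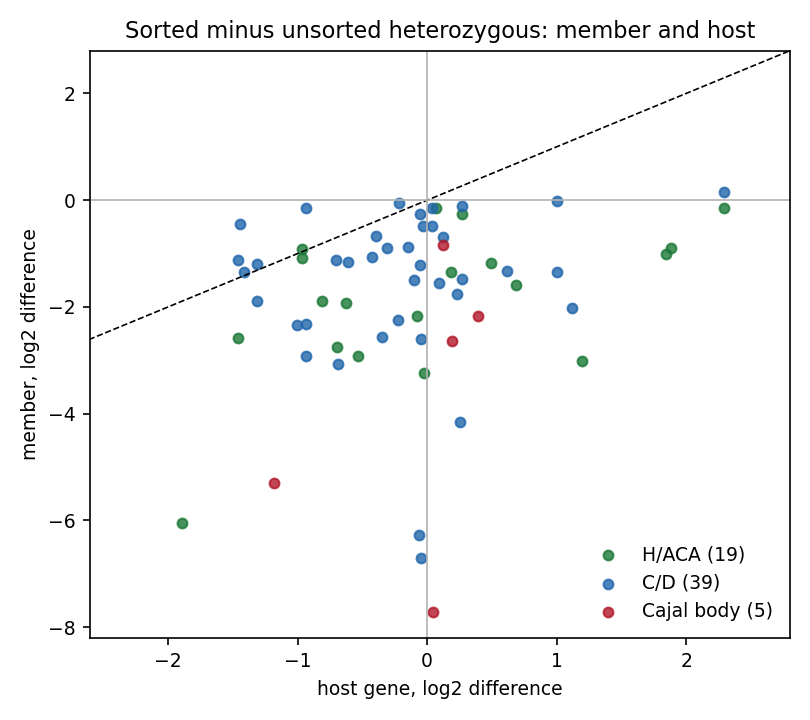
Sorted minus unsorted difference in log2(RPKM + 1), heterozygous libraries, of 63 members (vertical) against their host genes (horizontal), coloured by class, with equality as the dashed line. Of the 63 points 56 lie below the line, and the host values lie between -1.89 and 2.29.

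Other RNAs without a poly(A) tail moved the same way: with limma 52 of 61 were lower in sorted cells and 1 higher (median -2.97), including Rnu3a (-7.23) and the histone message Hist1h4h (-6.95). Rnu3a read 341 and 101 RPKM in unsorted and 0.60, 0.18 and 0.03 in sorted heterozygous libraries. Terc was at 0 to 0.07 RPKM in all 6 sorted libraries. The lists of protein partners were mixed. Of 6 H/ACA snoRNP genes 1 was higher (Gar1, 1.93, SE 0.67, limma adjusted p = 0.0429) and 0 lower, and of 9 C/D snoRNP genes 0 passed (1 at an unadjusted p under 0.05). Of 5 Cajal body proteins, Tgs1, a cap methyltransferase, was higher (0.83) and Wrap53, which brings scaRNAs to Cajal bodies, lower (-1.20). Of 10 RNase P and MRP proteins 1 was higher (Rpp25) and 1 lower (Pop7). Among 6 proteins of the 7SK particle, Larp7 was higher and 4 were lower, Mepce, Ccnt2 and Cdk9 among them.

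Mitochondrial ribosomal RNA took 38.7% to 53.6% of RPKM in the sorted heterozygous libraries and 19.2% and 27.3% in the unsorted ones, and mt-Rnr1 and mt-Rnr2 were both higher in sorted cells with limma. Of 8 goblet cell genes, all 8 had a lower estimate in sorted cells (median -2.07), and Fcgbp, Muc2 and Clca3 passed with limma. Immune markers summed to 3.04 to 5.41 RPKM in sorted and 2.63 to 5.25 RPKM in unsorted heterozygous libraries. The Y-linked sum was 0.01 to 0.06 RPKM in the sorted heterozygous libraries, so sex differed between these groups too. With a term for sex, which only the other groups can set, 49 members passed as lower, and after rescaling without mitochondrial genes 57 did. The part of cell type, sorting, RNA selection and the separate normalization in the result cannot be told apart.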

How the data were processed

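RNA was measured in 12 mouse libraries, 6 sorted and 6 unsorted. Per the labels' protocols, RNA came off RNeasy Mini columns and libraries were prepared from 1 ug of it with a TruSeq RNA kit. STAR 2.3.0e and mm10 appear in the submitters' processing notes, with no role stated. No source used here gives the annotation, counting tool, strand setting or any poly(A) selection. The authors deposited RPKM values, in 1 table of 28793 genes, and no count test was run.

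Analysis used log2(RPKM + 1). The test was limma 3.58.1 in R 4.3.3, two-sided, with a mean trend in its empirical Bayes step, no replicate block, and Benjamini-Hochberg adjustment over all genes of a comparison. It covered genes that reached RPKM 1 in at least 2 libraries (3 in the sorted fit). The unsorted groups were fitted together, the sorted groups together, and all 12 libraries for sorted against unsorted. The fits were tested on simulated data. Positions, hosts and sequences came from GENCODE M21, in which a host is the gene on the same strand that encloses the member. Plots were drawn in Python 3.11.15 (matplotlib 3.10.9) from tables made with pandas 2.3.3 and numpy 2.4.6.

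Members and gene lists were chosen with earlier results of these data known. In each comparison the text names the up to 10 highest and 10 lowest members that passed without overlap of groups. Where fewer than 3 passed, it names the 5 of smallest p. It also names Rmrp, Rpph1, Rn7sk, Rny1, Rny3, Terc, the tested Scarna members, Snord17, Snord118, the 10 members of highest mean, and up to 4 genes of each list. Snora73a, Snora73b and Snord3a, also in that rule, are not analysed here. Members named for a shared host or for a level kept in sorted cells were chosen after their values were seen. Alternatives were another pseudocount, 2 filters, 3 scalings, a replicate block, a term for sex, no mean trend and leaving out each library.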

Additional observations from a re-analysis of the deposited data

Results flagged for a closer look

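For 2 of the 85 members listed in both sets, every null library lay on one side of every heterozygous library in unsorted cells and on the opposite side in sorted cells. Of all genes tested, 8566 of 11464 were higher in null G4 without overlap in unsorted cells. In sorted cells 1098 of 8734 were lower in null G3 without overlap. Neither of the 2 members passed the filter of the sorted test. Without a filter, groups did not overlap in either direction for 14133 of 27658 genes in unsorted and 2209 of 25686 in sorted cells. Genes with both patterns were not counted, so the 2 members show nothing particular to this family. Snord35a differed by 1.23 in unsorted crypts (null G4 minus heterozygous, log2(RPKM + 1)) and by -0.2521 in sorted cells (null G3 minus heterozygous), where it was listed at 0 in all 3 null libraries and at 0.14 to 0.28 RPKM in the heterozygous ones. Snord73a, a C/D snoRNA in an intron of Rps3a1, differed by 0.4401 in unsorted and by -0.4893 in sorted cells. The difference between the effects was not tested for either member, and both lie under 1.2 RPKM in every sorted library.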

How the results depend on the processing

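Counts of members called depended on the settings in null G4 against heterozygous crypts. There 4 members passed, against 0 without a filter on low values, 7 (3 higher, 4 lower) with a filter at RPKM 5, which Snord35a and Snord45b passed through the null libraries alone, 1 each under quantile normalization, median scaling and rescaling without mitochondrial genes (Snord35a each time), 0 with the sex term, and 2 to 16 when 1 library was left out. Replicate numbers were not used to pair the samples in the main fit. Over tested genes, the deviations of same-numbered libraries from their group means correlated at 0.22, -0.07 and -0.12 between unsorted groups. In the sorted groups the values were 0.05, -0.03 and -0.19. With 2 libraries a group the unsorted deviations mirror each other, so these values do not settle whether the samples were paired. With the replicate block 12 members passed (8 higher, 4 lower) in null G4 against heterozygous crypts, where 1160 of 11464 genes were higher and 157 lower. In reactivated against heterozygous crypts the block gave 1 (Snord123, lower), where 211 genes were higher and 53 lower. Reactivated against null G4 crypts gave 0 under every alternative that kept all libraries. In sorted against unsorted cells 57 passed, and 37 with a filter at RPKM 5, where 41 members were tested. Leaving out 1 sorted heterozygous library gave 53 to 61. In sorted null G3 against heterozygous cells 0 passed under every alternative run.

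Over 37 results on single members, 538 of 592 alternative values kept direction and call, 28 lost the call, 20 gained it and 6 changed direction. Those 6 were in null G4 against heterozygous crypts: Rn7sk at 0.52 under quantile normalization and 0.29 with the sex term, Rny1 at 0.31 with the sex term and 0.0455 without heterozygous library 1, and Rny3 at 0.0494 without heterozygous library 1 and 0.17 without null G4 library 2. With 1 library left out, Rny1 ran from -1.30 to 0.0455 and Rny3 from -0.45 to 0.17. The cause was not tested. Where an unsorted library was left out, its partner was assumed to vary like the other groups. Depth limits the 35 members under 20 reads, whose differences of a few reads are not resolved.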
